A study of Mus musculus with 55 samples.

Results

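The genes described here encode proteins of the node of Ranvier and of the paranode and juxtaparanode beside it. Cntn1, Cntn2, Cntnap1, Cntnap2, Nfasc, Ank3, Sptbn4, Nrcam and Epb41l3 were taken by symbol from a table of 55487 genes. All 9 were among the 16168 genes tested. They were followed through RNA-seq libraries of the dorsal hippocampus from 55 adult mice, 1 library per mouse, in 10 groups set by genotype and by estrous stage or male sex. The 27 WT mice comprised 6 in diestrus, 5 in proestrus, 7 in estrus, 4 in metestrus and 5 males. The 28 Cnih3 KO mice comprised 6 in diestrus, 4 in proestrus, 6 in estrus, 5 in metestrus and 7 males. Age ran from 10.86 to 23.71 weeks with a median of 16.86 weeks, and no mouse received a treatment. The WT males were at 12 to 23.71 weeks, 1 of them under 14, and the KO males at 18.29 to 23.71 weeks. Both genotypes were on a C57BL/6J background, and the constitutive KO line lacks exon 4 of Cnih3, an auxiliary subunit gene of AMPA-type glutamate receptors, in every cell. All 28 KO mice and 11 of the 27 WT mice had parents labelled with Cnih3, called Cnih3 x B6 here. The paper states that KO mice came from pairs of heterozygotes, or at times from a homozygous parent. The label is therefore not read as a literal cross. Of the 12 diestrus mice, 7 were younger than 14 weeks (3 WT at 11.71 to 12.29 weeks and 4 KO at 10.86 to 13.86 weeks) and 5 were older (3 WT at 16.43 to 17.14 weeks and 2 KO at 16.29 and 23.43 weeks). The 7 younger diestrus mice were also the only mice of the 55 whose numbers had 3 plain digits. Age and whatever that numbering marks therefore cannot be told apart within diestrus. From the other stages and from males, too, these 7 mice differ in that numbering.

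At a node of Ranvier, voltage-gated sodium channels are held at high density in a short unmyelinated gap, and the action potential is regenerated there. An axonal scaffold of ankyrin G and beta IV spectrin anchors the channels together with the adhesion molecules neurofascin and NrCAM. On either side, at the paranode, contactin 1 and Caspr on the axon bind a neurofascin form on the myelin loops, and next to that, at the juxtaparanode, contactin 2 and Caspr2 hold potassium channels under the myelin. Protein 4.1B, encoded by Epb41l3, links the Caspr proteins to the cytoskeleton. Ankyrin G, beta IV spectrin, neurofascin and NrCAM are also parts of the axon initial segment, the site at which a neuron starts its action potentials.

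Total counts ran from 25.9 M to 63.5 M reads per library (median 53.4 M). In every library Snap25, of the presynaptic release machinery, was at 11.79 log2 CPM (counts scaled to the size of the library) or above. Mbp, the myelin basic protein gene, was at 10.09 log2 CPM or above in each. These 2 genes mark neurons and myelin and do not check the region dissected. Transcripts of tissue outside the hippocampus varied widely. Ttr, of the choroid plexus, ran from 1.94 to 11.04 log2 CPM and Prl, of the pituitary, from −3.29 to 7.13. The gene-level count of Cnih3 does not check the exon 4 deletion: it ran from 818 to 3234 reads in WT and from 1024 to 2690 in KO mice, with overlapping ranges. Over all mice Cnih3 was lower in KO by 0.34 on the log2 scale (limma FDR 0.00692). A list of 6 transcripts known to be kept in the nucleus, among them Malat1, Meg3 and Neat1, had a mean of 5.09 to 5.80 log2 CPM in the 7 younger diestrus mice, 7.15 to 7.73 in the 5 older ones and 5.90 to 7.71 in the 43 mice outside diestrus. Those 7 libraries stood below every other library on that list, and 5 of its 6 genes were lower in them than in the older diestrus mice. Comparisons of diestrus with males and with the other stages are given with and without them. Comparisons between the genotypes and of all females with males are given only with them.

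Compared per length of exonic sequence, Cntn1 was the most abundant of the 9 genes and Sptbn4 the least. The median over 55 mice was 21.5 CPM per kb for Cntn1 and 11.1 CPM per kb for Epb41l3. Cntnap2 (8.16 CPM per kb), Nrcam (7.23), Cntnap1 (6.59), Nfasc (5.46), Ank3 (4.49) and Cntn2 (4.48) lay between these and Sptbn4 at 1.36 CPM per kb. Over the 55 mice Cntn2 ran from 1.24 to 7.03 CPM per kb and Cntn1 from 12.2 to 29.1 CPM per kb, so that these ranges did not meet, while the order of neighbours such as Ank3 and Cntn2 lay within their spread. The division used all annotated exons, and a gene read mostly as a shorter transcript would be understated.

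Cntn2 and Nfasc lie side by side on the minus strand of chromosome 1 with no annotated gene between them. In GRCm38, Cntn2 (ENSMUSG00000053024) spans chr1:132509427-132543256 and Nfasc (ENSMUSG00000026442) spans chr1:132564690-132741797, with 21.4 kb between them. Nrcam (ENSMUSG00000020598) lies on the plus strand at chr12:44328885-44601964. The promoters of these 3 genes are shown because they differed most between younger and older diestrus mice. Each runs 5′ to 3′ on the gene's own strand from 250 bases before to 50 bases after a RefSeq start, and capitals mark a GC box (GGGCGG) or an estrogen response half-site (AGGTCA), on either strand. The Cntn2 promoter is chr1:132542891-132543190, the Nfasc promoters are chr1:132707277-132707576 for the first start and chr1:132642809-132643108 for the second, and the Nrcam promoter is chr12:44328635-44328934.
Cntn2: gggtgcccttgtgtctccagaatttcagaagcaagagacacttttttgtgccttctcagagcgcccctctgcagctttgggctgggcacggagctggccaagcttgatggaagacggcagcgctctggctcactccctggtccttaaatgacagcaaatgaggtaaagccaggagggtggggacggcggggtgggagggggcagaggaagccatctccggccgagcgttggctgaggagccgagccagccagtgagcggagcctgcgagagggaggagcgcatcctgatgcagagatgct
Nfasc, first start: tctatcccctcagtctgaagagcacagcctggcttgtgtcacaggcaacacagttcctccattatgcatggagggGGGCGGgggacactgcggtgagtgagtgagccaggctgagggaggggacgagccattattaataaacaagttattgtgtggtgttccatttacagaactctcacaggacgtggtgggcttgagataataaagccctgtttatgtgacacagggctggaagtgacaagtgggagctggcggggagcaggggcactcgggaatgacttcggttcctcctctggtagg
Nfasc, second start: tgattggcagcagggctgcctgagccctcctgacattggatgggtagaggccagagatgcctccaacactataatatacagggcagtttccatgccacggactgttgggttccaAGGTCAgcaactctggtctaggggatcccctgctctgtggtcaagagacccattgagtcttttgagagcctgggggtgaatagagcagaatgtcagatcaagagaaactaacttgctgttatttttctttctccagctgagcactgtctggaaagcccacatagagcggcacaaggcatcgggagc
Nrcam: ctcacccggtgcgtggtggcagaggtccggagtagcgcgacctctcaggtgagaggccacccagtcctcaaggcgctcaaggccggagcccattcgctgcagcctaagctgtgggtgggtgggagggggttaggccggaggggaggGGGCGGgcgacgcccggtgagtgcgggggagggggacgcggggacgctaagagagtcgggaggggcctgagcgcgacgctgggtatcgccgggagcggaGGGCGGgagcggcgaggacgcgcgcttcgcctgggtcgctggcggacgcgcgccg
The Cntn2 promoter held neither motif, the first Nfasc promoter held 1 GC box, the second held 1 half-site and the Nrcam promoter held 2 GC boxes. RefSeq promoters in GRCm38.p6 were at hand for 7 of the 9 genes, 16 promoters in all. A GC box was found in 9 of these 16 and in 35.7% of all 32851 mouse promoters of the same length, and a half-site in 3 of 16 and in 16.3% of all. The core of Sox sites (ACAAAG) was in 18.7% of all promoters and the core read for Myrf (CTGGCAC) in 5.01%, and neither was in the 16, again on either strand. These are letter matches in a window and not sites of binding.

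The first comparison asked whether hippocampal expression in each estrous stage differed from that in males of the same genotype. In KO mice all 9 genes differed between diestrus and males, 8 of them lower in diestrus, where 28.7% of all genes tested differed and 18% were lower. Cntn2, a GPI-anchored adhesion molecule, was lower by 0.98 on the log2 scale (SE 0.159, limma FDR 8.44e-06), which is 50.7% of the male level. Nfasc was lower by 0.71 (SE 0.136, FDR 9.60e-05), Nrcam by 0.60 (FDR 0.000313) and Sptbn4, the beta IV spectrin gene, by 0.59 (FDR 0.0045). Cntnap1, which encodes Caspr, was lower by 0.54 (FDR 3.94e-05), Cntn1 by 0.31 (FDR 0.0194), Cntnap2 by 0.28 (FDR 0.0157) and Epb41l3 by 0.21 (FDR 0.0116). Ank3, the ankyrin G gene, was the exception, higher in diestrus by 0.37 (SE 0.0784, FDR 0.00034). This count was 1 by edgeR (5.03% of all genes called) and 4 by DESeq2 (7.64%). With the 4 KO diestrus mice under 14 weeks left out it was 0 (0.0433%).

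In WT mice only Cntn2 passed between diestrus and males, where 0.068% of all genes did. It was lower by 1.11 on the log2 scale (SE 0.232, limma FDR 0.0262), or 46.2% of the male level, and the difference ran from −1.53 to −0.33 as 1 mouse at a time was left out. The other 8 genes did not pass, 5 of them with an unadjusted p under 0.05. Nfasc differed by −0.69 (FDR 0.101) and Nrcam by −0.53 (FDR 0.141), close to the KO values. By edgeR and DESeq2 no gene passed, and the Cntn2 call was lost without any 1 of the diestrus mice 548, 549 and 569 or the males 2018 and 2052, while 7 genes were called without male 1949. The difference between the genotypes in the diestrus effect was called for 0 of 9 genes, with 0 at an unadjusted p under 0.05 and 0 by edgeR and by DESeq2, as for 0% of all genes. The KO count of 9 and the WT count of 1 therefore do not show that the genotypes differed.

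Against the other stages of the same genotype, diestrus was again lower, in comparisons that share the diestrus mice with those above. In WT, 5 genes were lower in diestrus than in metestrus (5.59% of all genes tested were), 3 than in proestrus (7%) and 6 than in estrus (13.1%). In KO, 4 were lower and Ank3 higher than in metestrus (8.2% of all genes lower), 6 were lower than in proestrus (19.4%) and 7 than in estrus (19.3%). Cntn2, Nfasc and Cntnap1 were lower in all 6 of these comparisons. Cntn2 differed by −1.05, −1.32 and −1.29 on the log2 scale in WT and by −0.92, −1.14 and −1.07 in KO, from metestrus, proestrus and estrus in turn. As 1 mouse at a time was left out, the WT values came as near to 0 as −0.29, −0.54 and −0.52, and all 14 WT calls over the 9 genes were lost without diestrus mouse 548, 549 or 569. Without the 7 younger mice no gene was called in any of the 6, and Cntn2 was then 0.01 higher than in metestrus on the log2 scale in both WT and KO. By edgeR and DESeq2 the counts over the 3 stages were 0 and 1 in WT, where limma called 14, and 1 and 3 in KO, where limma called 18.

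**Figure D1:**
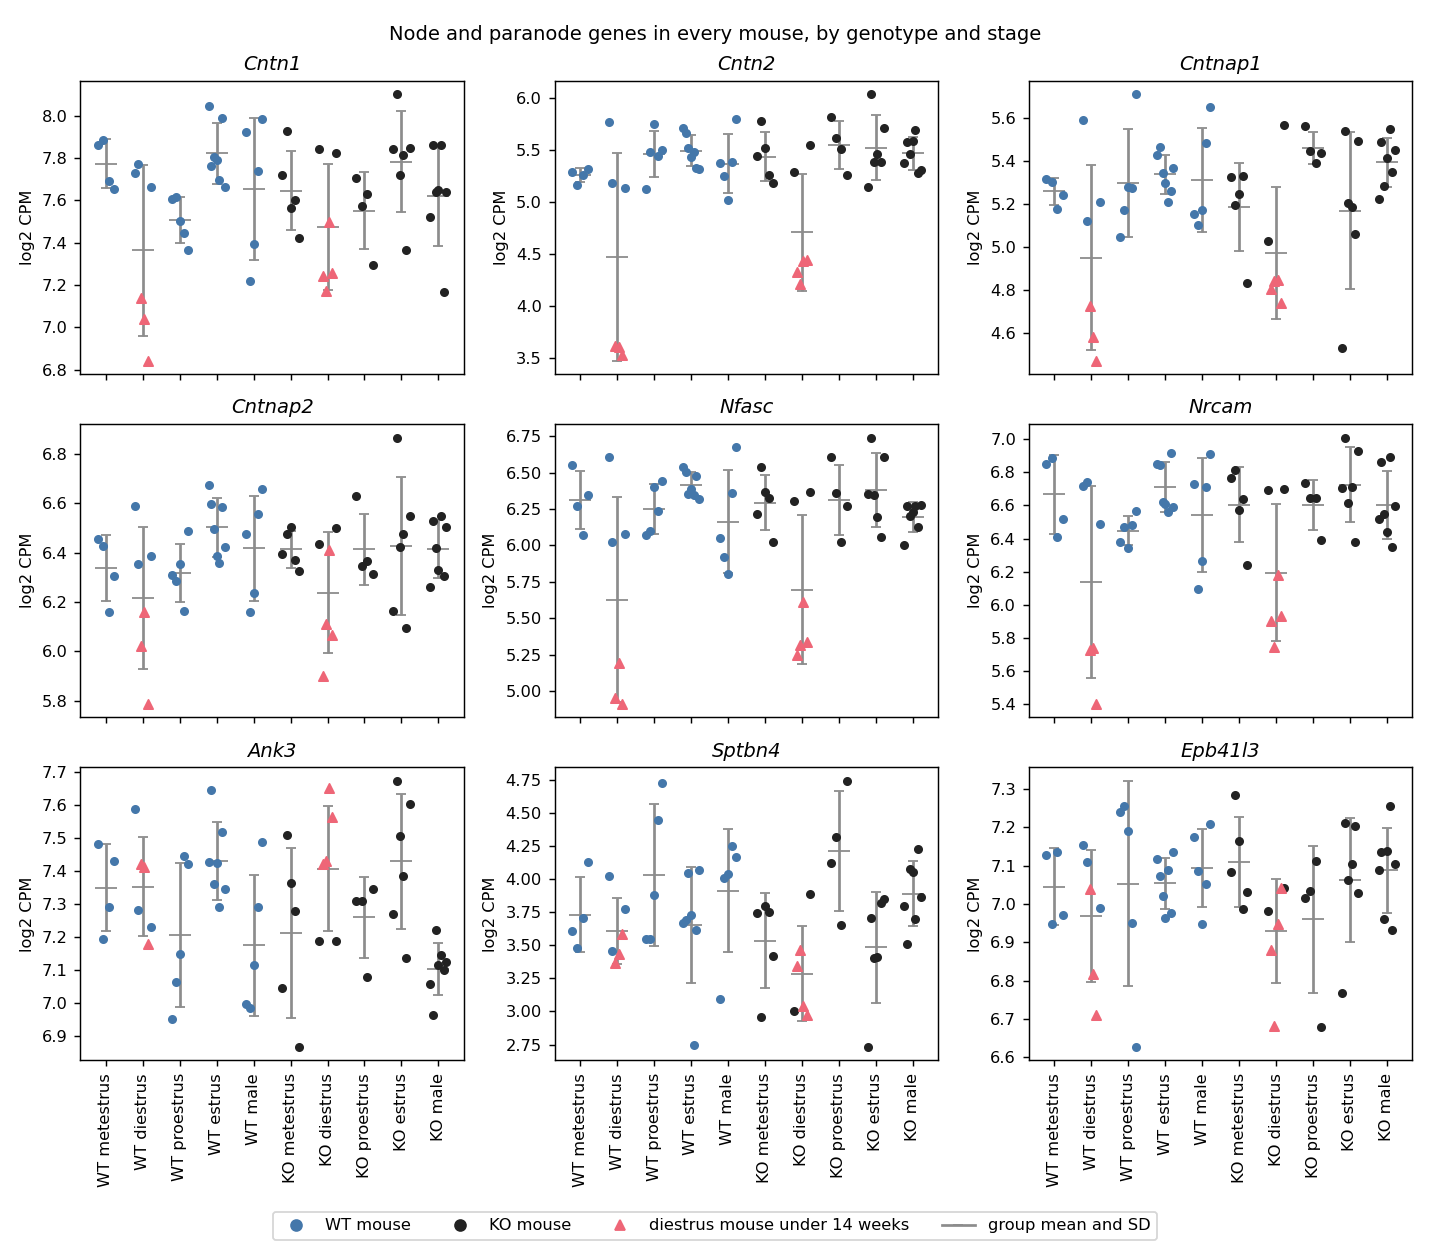
Log2 CPM of each of the 9 genes in each of 55 mice, by genotype and stage, with diestrus mice under 14 weeks as triangles and the mean ± SD of each group in grey. In the Cntn2 and Nfasc panels all 7 triangles lie below every other mouse, at 3.53 to 4.44 and 4.91 to 5.61 log2 CPM.

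Outside diestrus few calls were made. In WT, 0 calls were made over metestrus, proestrus and estrus against males (27 comparisons, 1 at an unadjusted p under 0.05, 0 by edgeR and by DESeq2), where 0.0309%, 0.0309% and 0.0495% of all genes passed. In KO the same comparisons gave 1 call: Ank3 was higher in estrus than in males by 0.37 on the log2 scale (limma FDR 0.00623), which was lost without estrus mouse 12_2, and 0.359%, 0.315% and 7.66% of all genes passed. All KO females together were higher than KO males in Ank3, by 0.25 (limma FDR 0.0125, 5.93% of all genes called), a call lost without male 2016, 2589 or 2591 and not made by edgeR or DESeq2. All WT females against WT males gave 0 calls, with 0 at an unadjusted p under 0.05 and 0 by edgeR and DESeq2, beside 0.0309% of all genes. Among stage pairs without diestrus, Ank3 was lower in WT proestrus than in WT estrus by 0.28 (FDR 0.0399, 6.82% of all genes called), a call not made by edgeR or DESeq2 and lost without any 1 of 7 of the 12 mice, with values from −0.32 to −0.17. The other 2 WT pairs gave 0 calls (0.767% of all genes between metestrus and proestrus, 0% between metestrus and estrus). Over the 3 WT pairs 6 of 27 values had an unadjusted p under 0.05. The 3 KO pairs also gave 0 (4.37%, 0.507% and 0%), with 5 of 27 values at an unadjusted p under 0.05 and 0 by edgeR and DESeq2. The KO log2 differences in these pairs still ran from −0.55 to 0.62, as wide as several of the diestrus differences.

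The loss of Cnih3 was compared next. Within each stage and in males, KO and WT differed in 0 of 45 tests by limma, edgeR and DESeq2, with 1 at an unadjusted p under 0.05 and log2 differences between −0.32 and 0.29. Over all genes 0.00619% passed in males, 0.179% in estrus, 0.315% in proestrus, 0% in diestrus and 0.0247% in metestrus. Over all 55 mice 0 of 9 genes passed, with 0 at an unadjusted p under 0.05, 0 by edgeR and 0 by DESeq2, and the log2 differences lay between −0.09 and 0.15, where 3.4% of all genes passed. The genotype difference in how diestrus stood to the other stages gave 0 calls by the 3 tools, with 0 at an unadjusted p under 0.05 and 0% of all genes.

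Within diestrus the genes separated by age group. Cntn2, which is made by neurons and by oligodendrocytes, was at 3.53, 3.61 and 3.61 log2 CPM in the 3 younger WT mice and at 5.13, 5.18 and 5.76 in the 3 older ones. In KO it was at 4.21, 4.33, 4.43 and 4.44 log2 CPM in the younger mice and at 5.29 and 5.55 in the older. All 7 younger mice lay below the 5 older ones, and also below each of the 43 mice outside diestrus, whose lowest value was 5.02 log2 CPM. Over both genotypes the younger mice were lower by 1.38 on the log2 scale (SE 0.124, limma FDR 5.40e-12), or 38.6% of the older level.

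Nfasc encodes neurofascin, whose forms serve both the node and the glial side of the paranode. It was at 4.91, 4.95 and 5.19 log2 CPM in younger and 6.03, 6.08 and 6.61 in older WT mice. In KO it was at 5.25, 5.32, 5.33 and 5.61 log2 CPM in younger and 6.30 and 6.37 in older mice. As with Cntn2, the younger mice lay below every other mouse of the series. The difference was −1.05 on the log2 scale (SE 0.113, limma FDR 3.83e-10), or 48.2% of the older level.

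Nrcam encodes an adhesion molecule that gathers with neurofascin at nodes. Its values were 5.40, 5.73 and 5.74 log2 CPM in younger and 6.49, 6.72 and 6.74 in older WT mice. The KO values were 5.75, 5.90, 5.94 and 6.18 log2 CPM in younger and 6.69 and 6.70 in older mice. The younger and older mice did not overlap, and 1 of the 43 mice outside diestrus reached into the younger range. The difference was −0.88 on the log2 scale (SE 0.11, limma FDR 1.94e-08), or 54.5% of the older level.

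The paranodal pair of axonal proteins differed by less. Cntn1 was at 6.84 to 7.50 log2 CPM (median 7.17) in the 7 younger and 7.66 to 7.84 (median 7.77) in the 5 older mice, a difference of −0.63 on the log2 scale (limma FDR 1.34e-06). Cntnap1 was at 4.47 to 4.84 log2 CPM (median 4.74) against 5.03 to 5.59 (median 5.21), a difference of −0.57 (limma FDR 9.54e-06). In neither gene did the 2 age groups overlap, but 8 of the other 43 mice lay below the highest younger value for Cntn1 and 2 for Cntnap1. Cntnap2, the juxtaparanodal partner of Cntn2, was lower by 0.39 (limma FDR 0.00107), and 2 older mice lay within the younger range of 5.79 to 6.41 log2 CPM.

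The 3 genes for proteins inside the axon membrane's scaffold did not pass. Ank3 was at 7.18 to 7.65 log2 CPM in younger and 7.19 to 7.59 in older mice, nearly the same range, with a difference of 0.17 (limma FDR 0.119). Epb41l3 differed by −0.16 (FDR 0.0777) and Sptbn4, the least abundant, by −0.23 (FDR 0.338). Both Epb41l3 and Sptbn4 were nevertheless lower in younger KO diestrus mice than in KO males.

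In all, 6 of 9 genes were lower in younger diestrus mice and none higher, where 20.1% of all genes tested were lower and 15.5% higher, and edgeR and DESeq2 also called 6. The median over the 9 genes was −0.57 on the log2 scale and −0.01 over all genes. Taken by genotype, 6 were lower in WT (17.3% of all genes lower) and 5 in KO (7.21% of all genes lower, and 4 genes by edgeR and 4 by DESeq2), where Cntnap2 missed (−0.38, limma FDR 0.0794). Cntn2 differed by −1.68 in WT and −1.07 in KO on the log2 scale. The difference of these differences was not called for any gene (0 of 9 by limma, edgeR and DESeq2, 1 at an unadjusted p under 0.05, 0% of all genes). Among WT mice from Cnih3 x B6 parents alone, the log2 differences ran from −1.53 for Cntn2 to 0.13 for Ank3. That leaves 1 older mouse, so no count of calls is given. In a tissue lysate, fewer cells of a type and less RNA per cell cannot be told apart.

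Set against males of their genotype, younger diestrus mice differed and older ones gave no call. No KO male and only 1 of the 5 WT males was under 14 weeks. Age, stage, sex and whatever the mouse numbering marks therefore cannot be told apart between younger diestrus mice and males. Younger WT diestrus mice were lower in 6 of 9 genes (15.3% of all genes lower), with Cntn2 at −1.73 on the log2 scale, or 30.2% of the male level. Younger KO diestrus mice were lower in 8 genes (20.2% of all genes lower) and higher in Ank3, by 0.40 (limma FDR 8.63e-05). Older diestrus mice gave 0 calls in WT and 0 in KO, with 0 at an unadjusted p under 0.05 and 0 by edgeR and DESeq2 in each, beside 0.0309% and 0.0433% of all genes. In the older mice Cntn2 differed from males by −0.05 on the log2 scale in both genotypes. There were only 3 older WT and 2 older KO mice, and the standard errors for Cntn2 were 0.158 and 0.169.

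**Figure D2:**
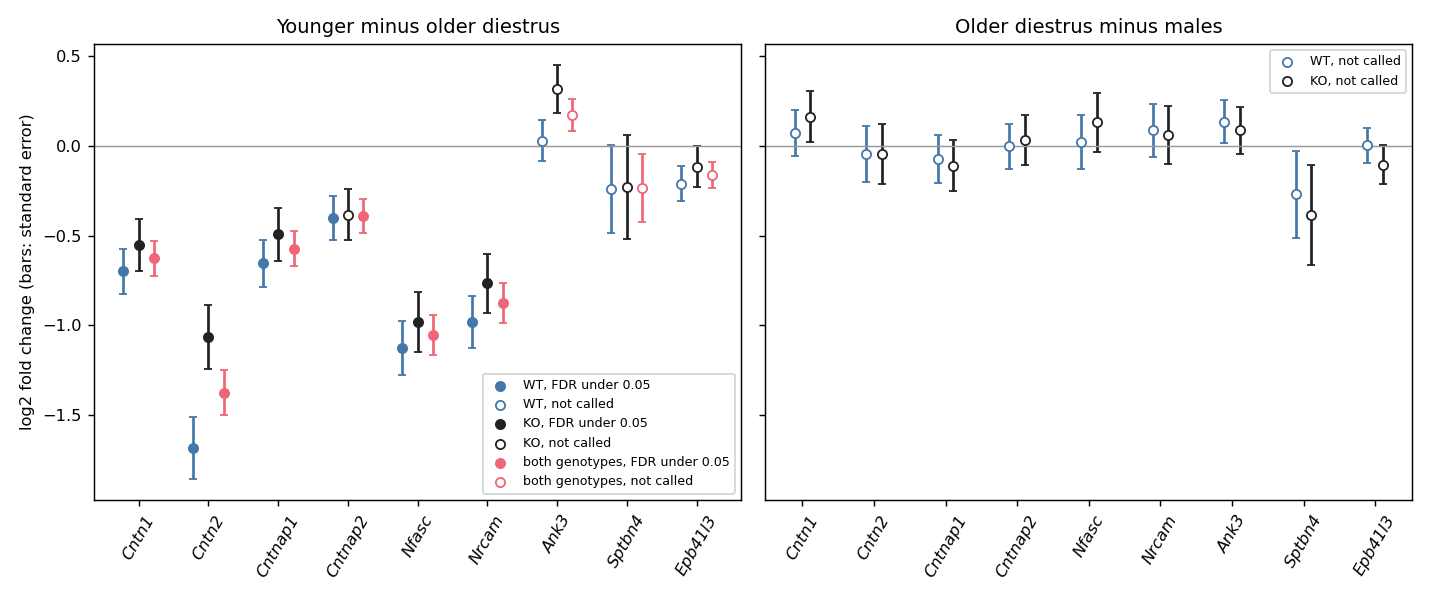
Log2 fold change with its standard error for each of the 9 genes, between younger and older diestrus mice (WT, KO and both) and between older diestrus mice and males, filled where the limma FDR is under 0.05. Cntn2 is lowest at −1.68 in WT, and no filled point appears for older diestrus mice against males.

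Outside diestrus no gene was called between younger and older mice. Among the 43 mice in the other stages and males, 10 were under 14 weeks, and a comparison of these with the mice of 14 weeks or over, chosen after seeing the data, called 0 of 9 genes and 0.309% of all genes. Cntn2 differed there by 0.03 on the log2 scale, Cntn1 by 0.00 and Nrcam by 0.06. Nfasc (0.18, limma FDR 0.247) and Ank3 (0.18, FDR 0.137) had unadjusted p-values of 0.0252 and 0.00555, with the younger mice higher, which for Nfasc is opposite in sign to the diestrus difference. Counts by edgeR and DESeq2 were not made for this comparison. The 10 mice under 14 weeks outside diestrus were all at 12 weeks or older, while the younger diestrus mice ran from 10.86 to 13.86 weeks.

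The genes that work beside these proteins were in part lower as well, beside 20.1% lower and 15.5% higher over all genes tested. Of 10 channel genes of the node, 6 were lower in younger diestrus mice and 0 higher, with a median of −0.41 on the log2 scale. They included the sodium channels Scn8a (−0.86), Scn1a (−0.90) and Scn2a (−0.80). Of 10 juxtaparanode genes 6 were lower, among them Adam22 (−0.78), Lgi3 (−0.74), Kcna1 (−0.41) and Kcna2 (−0.42), and Kcnab2 (0.33) and Dlg4 (0.24), the genes of a channel beta subunit and of PSD-95 in the cytoplasm, were higher. Of 7 genes of the matrix around nodes 6 were lower, with a median of −0.83, including Hapln2 (−1.49), Tnr (−0.99) and Vcan (−0.83).

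Relatives of the 9 genes within the contactin, Caspr and L1 families were lower in 9 of 11 cases, beside 20.1% of all genes tested. Their median was −0.76 on the log2 scale, and they included L1cam (−1.02), Cntnap5b (−1.01), Cntn4 (−0.99) and Chl1 (−0.73). Other genes of the axonal cytoskeleton gave 1 call of 8, Sptan1, the alpha II spectrin gene, at −0.23. Sptbn1 (−0.10, limma FDR 0.276) and Ank2 (−0.07, FDR 0.605), relatives of Sptbn4 and Ank3, did not pass. The total length of a gene's annotated exons, over all its transcripts, went with the difference over the whole table. Of genes with over 8 kb of exons 36.7% were lower in younger diestrus mice, against 3.83% of those under 1 kb. All of the 9 but Cntnap1 (5.88 kb) exceed 8 kb by this measure, so 36.7% is the nearer share to set beside their 6 of 9 lower. Ank3, the longest at 34.8 kb, was not lower. Whether exonic length bears on the difference in these genes was not tested. The most abundant transcript was shorter, at 9.96 kb for Ank3, 5.67 kb for Cntn1 and 4.05 kb for Epb41l3. The difference was not set against transcript length.

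**Figure D3:**
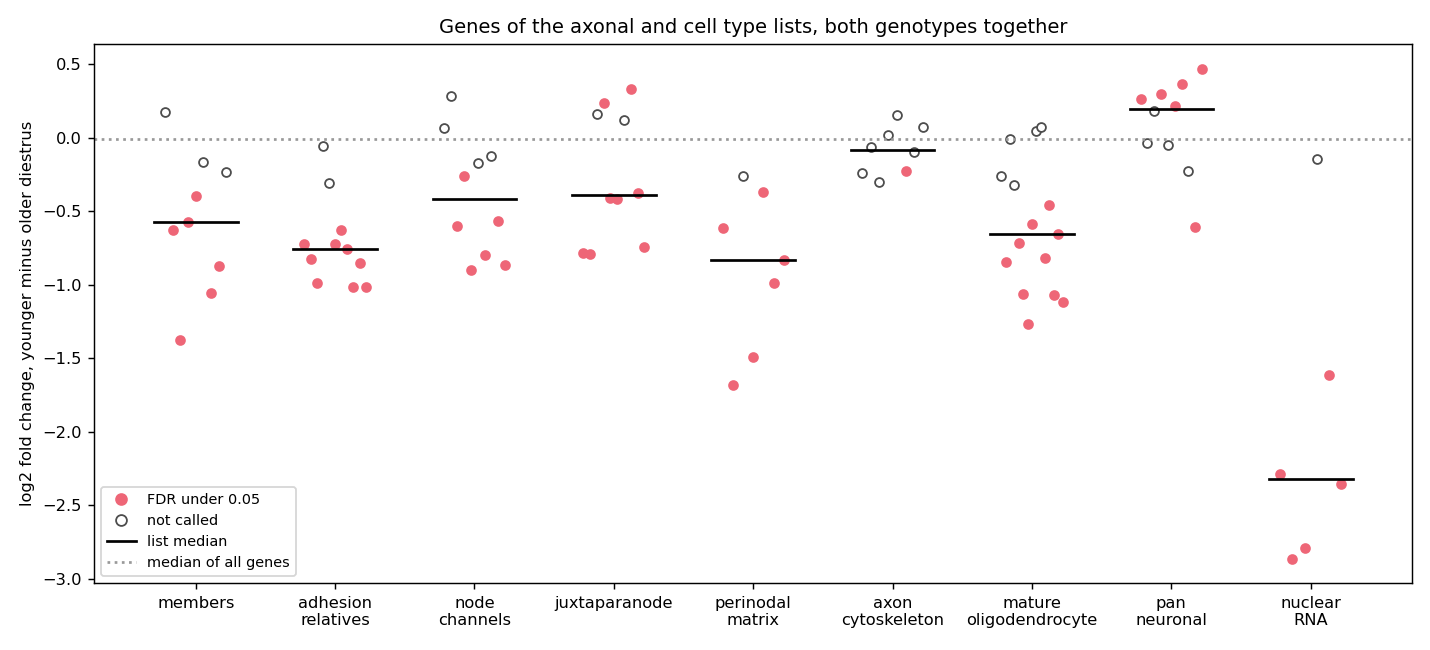
Log2 fold change between younger and older diestrus mice for each gene of the node and paranode set and of each list beside it, with filled points where the limma FDR is under 0.05. The adhesion relatives (median −0.76) and matrix genes (−0.83) lie lower than the axon cytoskeleton genes (−0.08) and the pan-neuronal genes (0.20).

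Markers of other cells were counted in the same comparison, where 20.1% of all genes were lower and 15.5% higher. Of 15 mature oligodendrocyte genes 10 were lower, with a median of −0.65 on the log2 scale. The list mean was 5.93 to 6.44 log2 CPM in younger diestrus mice, 6.42 to 7.08 in older ones and 6.52 to 7.42 in the other 43. Mag, a myelin adhesion molecule, was lower (−1.26), while Mbp was not called (0.05, limma FDR 0.80). Of 10 pan-neuronal genes 5 were higher, such as Snap25 (0.21), and 1 was lower, the membrane protein gene Syt1 (−0.61). Both the oligodendrocyte precursor list (2 of 7 lower) and the microglial list (3 of 6 lower) held lower genes, as did the CA1 (2 of 5) and dentate granule (3 of 6) lists, and the astrocyte list held 2 of 7 higher. In lists this short several of these counts lie near the shares over all genes. The interneuron list gave 1 higher and 1 lower of 8, the choroid plexus list 1 higher of 9, and the endothelial, thalamus, pituitary and blood lists none of 5, 6, 3 and 5 tested.

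With the mean of the mature oligodendrocyte list as a covariate, the KO diestrus calls against males went from 9 to 0, while those over all genes went from 28.7% to 0.421%. Between younger and older mice over both genotypes, 5 of the 6 genes were still lower with this covariate (19.3% of all genes called): Cntn2 (−1.12 on the log2 scale), Nfasc (−1.01), Nrcam (−0.85), Cntn1 (−0.56) and Cntnap1 (−0.49). In WT 5 of 6 were also still called, and in KO 3 of 5. The oligodendrocyte list mean was 5.93 to 6.28 log2 CPM in younger and 6.72 to 7.08 in older WT diestrus mice. These WT ranges do not meet, and those over both genotypes (5.93 to 6.44 and 6.42 to 7.08) barely do. The fit therefore can hardly separate this covariate from the age group. With the mean of the nuclear RNA list as a covariate, added after seeing the data, the comparison of younger with older mice over both genotypes gave 5 calls in place of 6 (8.68% of all genes called). Cntn2 (−0.80, limma FDR 0.017), Nrcam (−0.75, FDR 0.0169) and Cntn1 (−0.63, FDR 0.0219) were still lower, and Ank3 (0.79, FDR 0.000486) and Sptbn4 (0.99, FDR 0.0381) were then higher. Nfasc (−0.40, FDR 0.18), Cntnap1 (0.05) and Cntnap2 (−0.15) were no longer called. The nuclear RNA mean was 5.09 to 5.80 log2 CPM in younger and 7.15 to 7.73 in older diestrus mice. As these ranges do not meet, the fit cannot separate the covariate from the age group. Among the 43 mice outside diestrus the nuclear RNA mean correlated with Ank3 at r = 0.70, with Nfasc at 0.56, with Cntnap1 at 0.52 and with Epb41l3 at −0.07, as a description of libraries that share their RNA preparation.

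Epb41l3 was the only gene to pass against the mature oligodendrocyte list outside diestrus. After removal of group means, its level correlated with the list mean over the 43 mice outside diestrus (r = 0.77 and rho = 0.78 with p = 1e-05 for both, the smallest that 100000 permutations can give, adjusted p = 0.00018 over the 9 genes and 2 lists). Without the 2 mice farthest from the median of the list mean, r was 0.78. None of the other 8 genes passed against this list over these 43 mice, with Cntn2 the nearest (r = 0.38, adjusted permutation p = 0.0557, rho = 0.33). Over all 55 mice 7 of 9 passed. These mice include those in diestrus, some of whose libraries stood apart. Against the mean of the pan-neuronal list 5 of 9 genes passed by r over all 55 mice, each with a negative r. Over the 43 mice 2 passed, Cntn2 (r = −0.49, adjusted permutation p = 0.00738, rho = −0.37, adjusted p = 0.126) and Cntnap1 (r = −0.48, adjusted permutation p = 0.0149, rho = −0.15, adjusted p = 0.616). With the 2 most distant mice left out, these r were −0.38 and −0.12. Over all 55 libraries the genes with profiles most like Epb41l3 were Pls1 (r = 0.84), Sox2ot (0.83) and Tspan2 (0.81), the last of which is itself on the oligodendrocyte list.

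Over the 55 libraries, those nearest to the other 8 genes were Myrf (r = 0.94), Abca2 (0.94) and Sv2a (0.93) for Cntn2, Atp2b3, Sorl1 and Atp2a2 (each 0.95) for Nfasc, and Gria2, Gria3 and Sel1l (each 0.96) for Nrcam. For Cntn1 they were Emc1 (0.94), Canx and Tmx4 (each 0.93), for Cntnap1 Slc4a3 (0.92) and Atp9a (0.90), and for Cntnap2 Astn1 and Scn2a (each 0.89) and Sort1 (0.88). Ank3 was nearest to B230334C09Rik (0.88), its relative Ank2 (0.85) and Unc80 (0.84), and Sptbn4 to Tle5 (0.89) and Gnb2 (0.88). These correlations span groups that differ. Over the 48 libraries without the younger diestrus mice they were lower for Cntn2 (Myrf 0.75, Abca2 0.77, Sv2a 0.72), Nfasc (Atp2b3 0.83, Sorl1 0.87, Atp2a2 0.83) and Nrcam (Gria2 and Gria3 0.88, Sel1l 0.87). For Ank3 (Ank2 0.88) and Sptbn4 (Tle5 0.93) they were not lower, and for Epb41l3 they were 0.82 for Pls1 and for Sox2ot and 0.81 for Tspan2. For Cntn1 (0.90, 0.88 and 0.88 in the order above), Cntnap1 (0.86 and 0.79) and Cntnap2 (each 0.81) they were lower too. With the means of the 12 groups removed, Cntn1 and Nrcam still correlated at r = 0.87, Nfasc and Cntnap2 at 0.79 and Nfasc and Ank3 at 0.78.

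Transcript-level estimated counts gave the share of each gene's most abundant transcript. One of 16 tests between diestrus and males passed. A short Cntnap2 transcript of 4 exons and 6.28 kb, which shares the gene with a full-length form of 24 exons and 9.83 kb, took 74.3% ± 1.78 (SD, n = 6) of the Cntnap2 counts in KO diestrus and 82.2% ± 3.21 (SD, n = 7) in KO males (two-sided exact permutation test, p = 0.00117, adjusted p = 0.0186). In WT the share was 74.9% ± 5.46 (SD, n = 6) in diestrus and 80.4% ± 4.73 (SD, n = 5) in males (exact permutation test, adjusted p = 0.494). It was 72.7% ± 3.61 (SD, n = 7) in younger and 77.4% ± 2.49 (SD, n = 5) in older diestrus mice and 80.4% ± 4.54 (SD, n = 43) in the rest. Without the younger mice no test passed, and 2 KO mice against 7 could not have passed. For Cntn2, Sptbn4 and Nrcam the transcript with the longest coding sequence was not among those with counts. The Nfasc transcript counts were at most 53.7 per mouse, too few for a share to be read. Shares of these genes are still among the 16 tests.

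**Figure D4:**
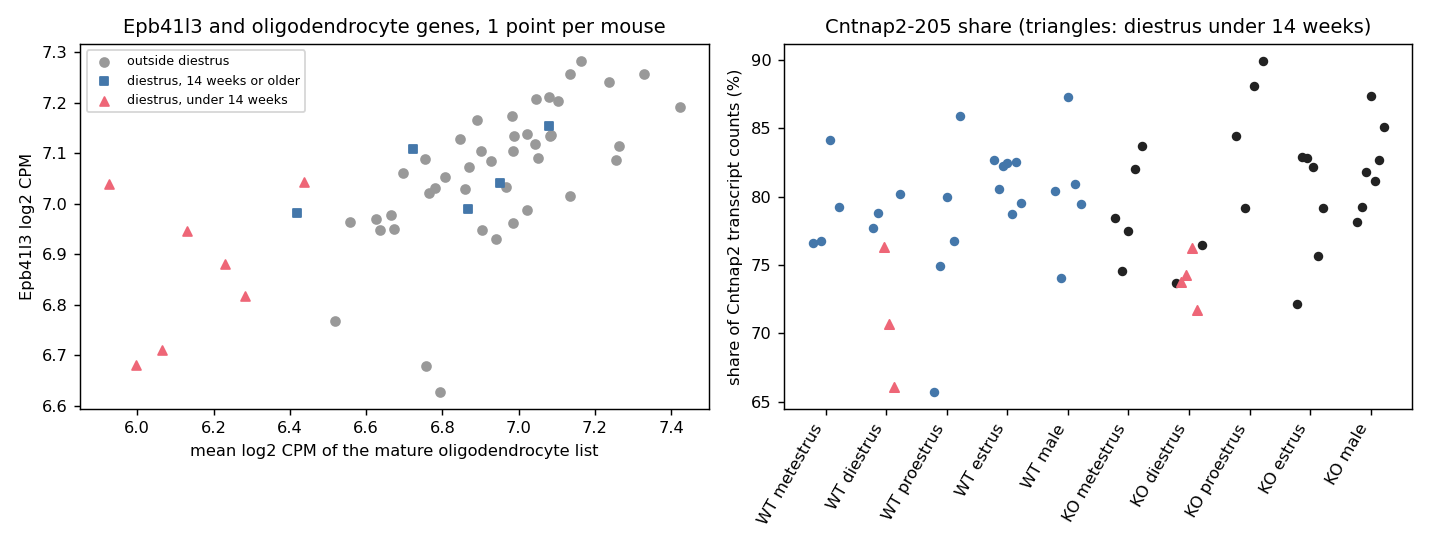
Left, Epb41l3 log2 CPM against the mean log2 CPM of 15 mature oligodendrocyte genes for each mouse. Right, percent of Cntnap2 estimated counts in the 4-exon transcript by group, with the 7 younger diestrus mice averaging 72.7%.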

How the data were processed

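RNA was taken from the dorsal part of the hippocampus of each mouse, from the supernatant of a detergent lysate spun at low speed, and sequenced as poly-A cDNA in pairs of reads. Per the labels and the submitters' processing notes, the authors aligned reads to GRCm38 with STAR 2.7.9a, counted reads per gene with featureCounts 2.0.3 and estimated transcripts with Salmon 1.5.2. The deposited gene table holds counts, used as deposited. The authors' CPM and log2 CPM tables were not tested on, and log2 CPM recomputed from the counts matched the authors' log2 values for the 9 genes. The deposited transcript table holds estimated counts, used only as shares within a gene. One column per table named no sample given here and was not used (1 column).

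Samples were grouped by genotype and stage from their labels. Genes with above 1 CPM in 10 or more libraries were kept, less 5 ribosomal RNA genes, which left 16168. Counts were scaled by TMM (edgeR 4.0.16) and fitted with voom and sample quality weights (limma 3.58.1, R 4.3.3), with 1 mean per group and no other covariate, or with diestrus divided at 14 weeks. A gene was called at a Benjamini-Hochberg FDR under 0.05 over all 16168 genes. Transcript shares and correlations used two-sided permutation tests, exact for shares. The code was tested on simulated data. Alternatives were edgeR's quasi-likelihood test, DESeq2 1.42.0, unweighted voom, RLE size factors, no filter, covariates for age and oligodendrocyte genes, fits to the compared groups alone, mice from Cnih3 x B6 parents alone, no younger diestrus mice, leaving out each mouse and, added after seeing the data, a nuclear RNA covariate and a replicate block for mice whose numbers start alike.

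The genes named were all 9 members, the genes of fixed lists, and the 3 genes most correlated with each member, some of which are not reported here. The members and lists were chosen with earlier results of these data known. The labels name each library by its mouse, and p-values measure the spread between mice. Exonic lengths and positions came from GENCODE M21 (GRCm38), and promoter sequences from RefSeq (GRCm38.p6). Whether reads were counted by strand is not given in the sources used here.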

Additional observations from a re-analysis of the deposited data

Results flagged for a closer look

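In 90 sets of values (9 genes in 10 groups), the highest or lowest mouse was compared with its nearest neighbour by Dixon's ratio. It stood apart in 6 sets, and chance alone gives about 1 in 20. All values are log2 CPM. Sptbn4 stood apart at the low end in WT estrus mouse 5_2 (2.74, with the next mouse at 3.62) and in WT male 1949 (3.10, next 4.01). Cntnap1 was low in KO metestrus mouse 7_2 (4.83, next 5.19) and high in KO diestrus mouse 7_1 (5.57, next 5.03), 1 of the 2 older KO diestrus mice. In KO proestrus, Cntnap2 was high in mouse 12_4 (6.63, next 6.36) and Ank3 was low in mouse 14_1 (7.08, next 7.31).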

How the results depend on the processing

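The calls that rest on all diestrus mice depended on the tool and on the 7 younger mice, while those between younger and older diestrus mice were 6 by each of the 3 tools over both genotypes and, in KO alone, 5 by limma and 4 each by edgeR and DESeq2. Of 77 values called, 26 changed sign in some setting, 32 lost the call when 1 mouse was left out and none changed sign then. Limits are the number of older diestrus mice (3 WT and 2 KO), the age groups that coincide with the mouse numbering, and gene counts that do not separate neuronal from glial transcripts. With RLE size factors the median of all genes lay within 0.03 of 0 on the log2 scale. Each mouse number occurs once, and the labels do not say what a shared first part of the number (8 such parts over 26 mice) marks. With that part as a replicate block, added after seeing the data, the calls were again 14 for WT and 18 for KO diestrus against other stages and 6 for younger against older mice over both genotypes. The cause was not tested for any change below.

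The 1 gene called between WT diestrus and males became 0 with edgeR, DESeq2, unweighted voom, the oligodendrocyte, age or nuclear RNA covariate, the 2 groups alone, or no younger mice, and 7 among mice from Cnih3 x B6 parents, where 42.7% of all genes were called. The 14 calls between WT diestrus and other stages became 0 with edgeR, the oligodendrocyte covariate or no younger mice, 1 with DESeq2, 4 unweighted and 7 with the compared groups alone. The 1 call among other WT stage pairs became 0 with edgeR, DESeq2, unweighted voom or no filter, 6 with the oligodendrocyte covariate and 3 with the compared groups alone. Between WT younger and older mice from Cnih3 x B6 parents, the log2 differences ran from −1.53 for Cntn2 to 0.13 for Ank3. With 1 older mouse there, no count of calls is given.

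The 9 calls between KO diestrus and males became 1 with edgeR or the nuclear RNA covariate, 4 with DESeq2, 3 unweighted or with age, and 0 with the oligodendrocyte covariate or no younger mice. The share of all genes called fell from 28.7% to 5.03%, 5.79%, 7.64%, 6.54%, 6.34%, 0.421% and 0.0433% in these settings in turn. The 18 against other KO stages became 1 with edgeR or the oligodendrocyte covariate, 3 with DESeq2, 6 unweighted, 11 with no filter or with age, and 0 without younger mice. The Ank3 call in KO estrus against males became 0 with edgeR or unweighted, and that in KO females became 0 with edgeR, DESeq2, unweighted voom, no filter or age. Calls among other KO stage pairs went from 0 to 1 with the oligodendrocyte covariate and 3 with age. That covariate took KO younger against older mice from 5 to 3 and KO younger mice against males from 9 to 5. Outside diestrus, younger against older mice gave 0. The transcript share call went from 1 to 0 without younger mice, and correlations with oligodendrocyte genes from 7 to 1 over the 43 mice outside diestrus.

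Leaving out 1 mouse gave 0 to 7 calls for WT diestrus against males, 0 to 17 against other WT stages, 0 to 1 among other WT stage pairs, 5 to 7 for WT younger against older mice and 5 to 8 for WT younger mice against males. The WT diestrus calls against other stages were 0 without mouse 548, 549 or 569. In KO it gave 7 to 9 for diestrus against males, 0 to 1 for other stages against males, 0 to 2 for females against males, 13 to 20 for diestrus against other stages, 0 to 1 among other stage pairs, 4 to 6 for younger against older mice and 8 to 9 for younger mice against males. It gave 0 to 1 for KO against WT within groups (1 without WT diestrus mouse 548), 6 to 7 for younger against older mice over both genotypes, and 1 to 2 for transcript shares (2 without KO male 1950).

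These log2 differences changed sign. Without younger mice, WT diestrus less metestrus was 0.0145 for Cntn2, 0.00436 for Cntnap1 and 0.00532 for Nrcam, and diestrus less proestrus was 0.0283 for Cntnap1 (0.111 with the oligodendrocyte covariate). Without younger mice, KO diestrus less males was 0.146 for Cntn1, 0.0165 for Cntnap2, 0.114 for Nfasc and 0.0444 for Nrcam. With the oligodendrocyte covariate it was 0.0944 for Cntn1, 0.0126 for Cntnap2 and 0.0212 for Epb41l3, and with nuclear RNA 0.0186 for Cntn1. Against KO metestrus and without younger mice, the values were 0.00803 for Cntn2, 0.0652 for Cntnap1 (0.0469 with the oligodendrocyte covariate), 0.0482 for Nfasc, −0.0152 for Ank3 and 0.0747 for Nrcam. Against KO proestrus they were 0.0157 for Cntnap2 (0.00263 with the oligodendrocyte covariate) and 0.0373 for Nrcam, and against KO estrus 0.0518 for Cntn1, 0.0405 for Cntnap1 and 0.000622 for Cntnap2. Epb41l3 in KO younger mice less males was 0.0889 with the oligodendrocyte covariate. Younger less older mice was 0.00482 for Cntn1, 0.0277 for Cntn2, 0.0376 for Cntnap2, 0.179 for Nfasc and 0.0578 for Nrcam outside diestrus, and 0.0477 for Cntnap1 in diestrus with nuclear RNA. The nuclear RNA covariate, the parent setting for younger against older WT mice and the comparison outside diestrus were chosen after seeing the data.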

Other observations

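Gene families defined by their annotated descriptions, chosen after seeing the data, differed between younger and older diestrus mice in unlike directions. Of 252 solute carrier genes, which encode membrane transporters, 127 were lower and 12 higher in younger mice over both genotypes (median −0.39 on the log2 scale). Of 57 protocadherins, adhesion molecules of the neuronal surface, 34 were lower and 0 higher (median −0.66), and of 22 receptor-type tyrosine phosphatases 14 were lower and 0 higher. Of 218 genes described as transmembrane proteins 82 were lower and 18 higher. Of 176 genes with the words ribosomal protein in their description, which does not set cytosolic apart from mitochondrial ones, 132 were higher and 0 lower (median 0.29). Of 48 genes with the word proteasome in it 30 were higher and 1 lower. Of 356 zinc finger protein genes, mostly nuclear factors, 48 were lower and 14 higher (median −0.07). Over all genes tested 20.1% were lower and 15.5% higher. In WT alone 139 of the 176 genes with ribosomal protein in their description were higher, where 13.6% of all genes were. In KO alone 1 was, where only 1.47% of all genes were higher. Whether a family differed between the genotypes was not tested.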
